A study of Mus musculus with 16 samples.

Results

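Conjugating enzymes attach a polar group to drugs, steroids, bilirubin, bile acids and reactive products of metabolism, which makes them easier to excrete in bile or urine. The genes described here are those of the UDP-glucuronosyltransferase families 1, 2 and 3 (Ugt), the cytosolic sulfotransferases (Sult), the soluble and microsomal glutathione S-transferases (Gst and Mgst), and Papss1 and Papss2, the enzymes that make the sulfate donor. They were taken by gene symbol from the table of read counts, which gave 71 of its 41079 rows. Glucuronidation has 21 of these genes, sulfation 23 and glutathione conjugation 27. A filter on low counts kept 16742 rows of the table, among them 63 of the 71 genes (18, 19 and 26 in the same order). Only these were tested. The 8 others were Ugt1a8, Ugt2a1, Ugt2a2, Sult1c1, Sult2b1, Sult6b1, Sult6b2 and Gstt4, and Ugt2a1 and Ugt2a2 had no read in any library.

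In liver, UDP-glucuronosyltransferases sit in the endoplasmic reticulum and transfer glucuronic acid from UDP-glucuronic acid, sulfotransferases transfer sulfate from the donor PAPS in the cytosol, and glutathione S-transferases join glutathione to electrophiles or use it to reduce peroxides. Hepatocytes hold most of these enzymes, and several of them differ with the lobular zone and with sex in mice. The Sult2a genes are a textbook case, since the pattern of growth hormone secretion sets their level in rodent liver.

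Liver RNA came from mice of 20 to 22 months on the C57BL/6J background, and the question was how loss of the glucagon receptor from the liver alters gene expression in each sex. The knockout mice (LKO) carried floxed Gcgr and a Cre transgene driven by the Albumin promoter, which is active in hepatocytes, and the controls (CRE-) carried floxed Gcgr without Cre. There were 4 male CRE-, 4 male LKO, 4 female CRE- and 4 female LKO mice, with 1 library per mouse. Each library had between 33268424 and 56488920 counted reads. Levels are given as CPM, read counts scaled by library size with TMM, and a group's values are always given for replicates 1 to 4 in that order. Levels of different genes are compared only as RPKM, which also divides by gene length. Within each sex, LKO was tested against CRE- with edgeR, and p was adjusted over all 16742 genes. A gene is called where the adjusted p is under 0.05. Log2 ratios of LKO to CRE- are given with an approximate standard error after the sign ±. This error is the size of the ratio divided by the square root of the edgeR F statistic, and can mislead where reads are few.

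Gcgr, the targeted gene, was at 190.4, 193, 127 and 189.6 CPM in the CRE- males and 117, 136, 129.9 and 160.3 CPM in the LKO males. In the female libraries it was at 162, 208, 201 and 180.0 CPM in the CRE- females and 48.8, 132, 119 and 93.6 CPM in the LKO females. The female groups did not overlap, whereas 3 of 4 LKO males lay above CRE- male replicate 3. The log2 ratio of Gcgr was -0.37 ± 0.24 (adjusted p 0.671) in males and -0.93 ± 0.25 (adjusted p 0.0443) in females. The count takes in the whole gene, with exons that the deletion leaves in place, so it does not measure how complete the deletion was. The female call was kept in 1 of 8 fits that each left out 1 female mouse, the one without LKO replicate 2, and the log2 ratio was -0.69 without LKO replicate 1.

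Some libraries stood apart. LKO male replicate 1 had 301 CPM in Sult2a1 to Sult2a6 together, genes that are normally expressed in female liver, where no other male had more than 2.14 CPM. Cux2, a transcription factor typical of female liver, was at 60.4, 0.833, 0.894 and 0.5403 CPM in the LKO males and at 0.527, 1.72, 0.416 and 0.3596 CPM in the CRE- males. Replicate 1 was the only male library within the female range of Cux2, which ran from 25.6 to 96.4 CPM, yet its Xist level was 0.0515 CPM against at least 137 CPM in each female library. LKO female replicate 1 had the lowest quality weight of the 16 libraries in limma-voom (0.216), and all members together summed to 5606 CPM in it against 11931 to 15657 CPM in the other LKO females. CRE- male replicate 3 had the next lowest weight (0.296), and its members summed to 7929 CPM against 11535 to 16858 CPM in the other CRE- males. Genes of pericentral hepatocytes summed to 8924, 13856, 2898 and 10116 CPM in the CRE- males, so the same replicate 3 was lowest there as well. LKO female replicate 4 had 551 CPM of neutrophil markers. Glul, the pericentral glutamine synthetase, was at 1052, 1209.5, 1841 and 5724 CPM in the LKO females, with the same replicate 4 highest. With LKO female replicate 1 and CRE- male replicate 3 both left out, edgeR called 2 members in males (Ugt1a5 and Papss2), beside 0.454% of all genes. In females it then called 6 (Ugt1a5, Sult2a7, Gstp1, Gstp2, Gstp3 and Papss2), beside 2.13% of all genes.

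The hepatocyte markers were expressed in every library, and 10 of 10 passed the filter. Summed, they stood at 78590, 106720, 110020 and 106010 CPM in the CRE- males and 70699, 86919, 99996 and 87786 CPM in the LKO males. In females the sums were 127180, 120170, 126420 and 143520 CPM in CRE- and 58144, 97689, 98290 and 77127 CPM in LKO mice. Every LKO female was below every CRE- female, and Alb was the most abundant gene of the list. The median log2 ratio of the 10 genes was -0.08 in males and -0.73 in females, where 0 of 10 were called by edgeR in either sex and 2 and 4 had an unadjusted p under 0.05, all lower. Some of these genes also stand in other lists, Alb and Cps1 among the periportal genes, Cyp2e1 among the pericentral genes and Hnf4a among the regulators.

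Markers of other cells were higher in LKO females. Of 14 macrophage markers 3 rose (Adgre1, Itgam and Trem2), 12 were higher at an unadjusted p under 0.05 and the median log2 ratio was 1.455. The sums were 1017, 719, 795 and 1571 CPM in CRE- and 3929, 1300.5, 2921 and 2037 CPM in LKO females, with Lyz2 the most abundant and none at 0 in any library. Of 8 neutrophil markers 7 were tested, 2 rose (Retnlg and Mpo) and all 7 were higher at an unadjusted p under 0.05, at a median of 3.17, with sums of 37.7, 20.3, 16.7 and 17.2 CPM and 128, 43.9, 65.05 and 551 CPM in CRE- and LKO females. S100a9 was the most abundant neutrophil gene, and Ly6g, which failed the filter, had 0 reads in 3 of 4 CRE- females, 2 of 4 CRE- males and all 4 LKO males, as did Elane in CRE- female replicate 3 and CRE- male replicate 3. Replicate 4 had by far the most neutrophil signal among the LKO females. The 6 proliferation genes gave 5 calls (Top2a, Ccnb1, Cdk1, Birc5 and Aurkb, all higher) and 6 at an unadjusted p under 0.05, at a median of 1.93, with sums of 10.1, 8.51, 5.08 and 17.96 CPM and 80.8, 15.6, 32.4 and 33.96 CPM, Mki67 being the most abundant. Of 8 endothelial markers Cdh5 and Vwf rose and 4 were higher at an unadjusted p under 0.05, at a median of 0.55, with sums of 251, 325, 313 and 308 CPM in CRE- and 516, 319.7, 297 and 390.3 CPM in LKO females and Stab2 the most abundant. The lists for B lymphocytes with plasma cells (8), erythroid cells (6), cholangiocytes (7 of 8 tested), stellate cells with fibroblasts (9) and T lymphocytes with NK cells (9) had 0 calls by edgeR in either sex, with at most 1 gene at an unadjusted p under 0.05 in each except 5 of 6 erythroid genes, lower in males, and 2 B and plasma cell genes in females, 1 higher and 1 lower. In males 0 of the genes on the 4 lists that had calls in females were called, and 5 neutrophil genes and 1 endothelial gene, all lower, had an unadjusted p under 0.05. The part of these markers in the results on conjugating enzymes was not tested. In bulk RNA, fewer hepatocytes and less RNA of a gene per hepatocyte cannot be told apart.

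In LKO females most conjugating enzymes that were tested had a lower mean than in CRE- females, and few of the differences passed the test. Of the 63, 7 were called (11.1%), beside 4.24% of all genes tested. Of these 6 were lower (all genes 2.15%) and 1 was higher (all genes 2.09%). Ugt1a5, Ugt2a3, Papss2, Sult2a7, Gstz1 and Gstp3 fell, and Gstp2 rose. At an unadjusted p under 0.05 there were 29 of 63, 26 of them lower, beside 21.4% of all genes. DESeq2 called 16 (all genes 11.1%). With each sex fitted alone, 1 was called in females, Ugt1a5 (all genes 0.756%). The groups did not overlap for 14 of 63, all lower in LKO (all genes 6.42%), and for 0 of 63 that were higher (all genes 5.2%). Among the 14 was Sult3a2, which could pass the filter only by differing between groups. Negative log2 ratios numbered 14 of 18 in glucuronidation, 18 of 19 in sulfation and 19 of 26 in glutathione conjugation. The medians were -0.52, -0.89 and -0.37 in the same order, beside 0.04 over all genes tested. Without LKO replicate 1 the glutathione median was -0.08, those of glucuronidation and sulfation were -0.39 and -0.61, and 5 genes were called (all genes 1.39%). The count of 7 became 4 without CRE- female replicate 1 and 3 without CRE- female replicate 2, 3 or 4. The fit uses a single estimate of scatter per gene for all 4 groups. The count was also 4 without CRE- male replicate 1 or 4 (all genes 2.78% and 3.54%). It was 4 as well without LKO male replicate 2, 3 or 4 (all genes 2.5%, 2.93% and 2.49%), so the share of all genes fell too in these fits.

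In males 0 of 63 were called by edgeR, beside 0.454% of all genes (0.221% higher and 0.233% lower), while 21 had an unadjusted p under 0.05 (all genes 9.53%), 17 of them higher and 4 lower. Of the 17, 6 were Sult2a1 to Sult2a6, whose reads in LKO males came mostly from replicate 1. DESeq2 called 4 of 63 (Ugt1a5, Papss2, Mgst3 and Sult2a1), beside 2.03% of all genes, and limma-voom with sample quality weights called 1, Papss2 (all genes 0.884%). The groups did not overlap for 4 genes that were higher in LKO (all genes 3.57%) and 3 that were lower (all genes 2.92%). The higher ones were Ugt2b35, Sult1e1, Gsta5 and Mgst3, and the lower ones Ugt1a5, Papss2 and Sult5a1. Median log2 ratios were 0.25 for glucuronidation, 0.31 for sulfation and 0.57 for glutathione conjugation, beside -0.01 over all genes. Without LKO male replicate 1 they were 0.18, -0.15 and 0.34, so the sulfation median changed sign. Without LKO female replicate 1, which enters the male comparison through the shared spread, Ugt1a5 and Papss2 were called in males with adjusted p of 0.0364 and 0.0335.

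The difference between the sexes in the LKO effect was tested as an interaction, which called 0 of 63 by edgeR and 0% of all genes tested. At an unadjusted p under 0.05 it gave 26 of 63 (all genes 16%), 25 of them with the lower effect in females. Of the 25, 6 were Sult2a1 to Sult2a6, whose reads in LKO males came mostly from replicate 1. Without that mouse the sulfation median of the interaction moved from -2.396 to -0.648. DESeq2 called 4 (Mgst3, Sult2a1, Sult2a7 and Gstp3), beside 2.22% of all genes, and limma-voom called 0 (all genes 0.173%). Without LKO female replicate 3, edgeR called 1, Sult2a7. A call in females beside none in males therefore does not by itself show that the sexes differed.

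**Figure D1:**
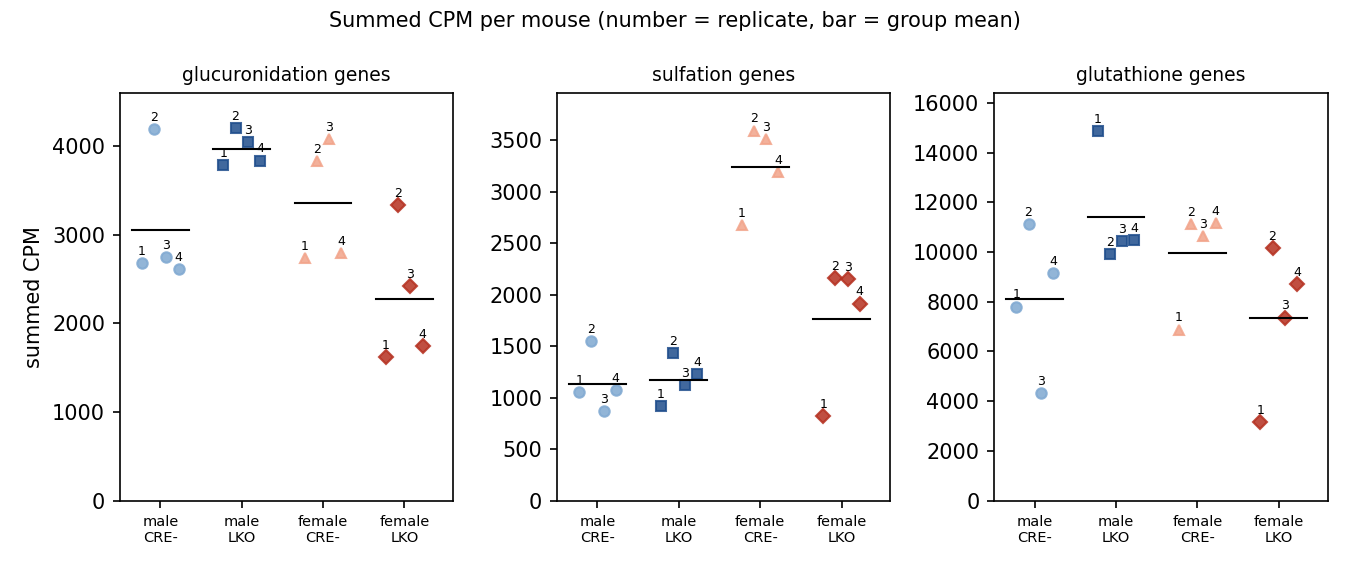
Summed CPM of the glucuronidation, sulfation and glutathione genes in each mouse (vertical axes from 0, numbers are replicates, bars are group means). The sulfation sum was 2674 to 3592.5 CPM in CRE- females and 821 to 2157 CPM in LKO females, without overlap. Of the mean sums of 3242 and 1761 CPM, Sult2a1 to Sult2a6 gave 1909 and 1015 CPM, and edgeR called none of these genes in LKO females.

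As a class, the glucuronidation genes summed to 2739, 3834, 4079.5 and 2795 CPM in CRE- and 1621, 3336, 2423 and 1746 CPM in LKO females, and to 2682, 4193, 2749.9 and 2612 CPM in CRE- and 3790, 4207, 4045 and 3839 CPM in LKO males. The groups overlapped in each sex, in males because CRE- replicate 2 was as high as the LKO mice. The highest RPKM were those of Ugt2b5 (366 RPKM over all libraries), Ugt2b36 (292 RPKM), Ugt3a2 (164 RPKM), Ugt2b34 (143 RPKM) and Ugt2a3 (88.6 RPKM). Ugt1a1 had 82.4 RPKM, but 67.2% of its windows of 150 bases occur in other genes and reads on more than 1 gene were not counted, so its place in this order is uncertain. The order also changed with the group, Ugt2b1 being above Ugt2a3 in males. Family 2 enzymes conjugate steroids, bile acids and many drugs, and family 3 enzymes use other UDP-sugars than glucuronic acid.

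Ugt1a5 gave the smallest female p of the class. It is 1 of 9 Ugt1a rows (chromosome 1, 88093734 to 88147724 of GRCm39), which share their last exons and each have a starting exon of their own. Its level was 142, 148, 139 and 141 CPM in the CRE- females and 17.6, 48.8, 46.2 and 39.9 CPM in the LKO females. The CRE- females were tightly grouped, and every LKO female was far below them. Ugt1a5 fell in females, with a log2 ratio of -1.90 ± 0.34 (adjusted p 0.0111). This call was kept in each of the 8 fits that left out 1 female. The male values were 32.9, 96.4, 32.1 and 48.7 CPM in CRE- and 18.01, 25.5, 17.1 and 22.1 CPM in LKO mice. Here too the groups did not overlap, although CRE- replicate 2 was well above the other controls. Its log2 ratio in males was -1.34 ± 0.34 (adjusted p 0.108), and it moved to -0.87 without CRE- male replicate 2. The interaction was -0.56 (adjusted p 0.541). In the transcript models, 74.0% of the windows of 150 bases in Ugt1a5 also occur in other genes, and reads on more than 1 gene were not counted, so its count comes mostly from its own starting exon, and an RPKM over the whole length understates it.

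Ugt2a3 (chromosome 5, 87472694 to 87485054) encodes a family 2 enzyme of liver and gut, and none of its windows occur in another gene. It was at 204, 283, 312 and 234 CPM in the CRE- females and 52.4, 197, 106 and 79.5 CPM in the LKO females, with no overlap and LKO replicate 2 close to the lowest control. Ugt2a3 fell in females, by a log2 ratio of -1.25 ± 0.32 (adjusted p 0.0413). The call was kept in 1 of 8 fits that each left out 1 female, the one without LKO replicate 2, where the log2 ratio was -1.71, and it was -0.998 without LKO replicate 1. Among males it stood at 195, 318, 202 and 212 CPM in CRE- and 142, 240.0, 219.5 and 197 CPM in LKO mice, and the groups overlapped. As a log2 ratio, the male difference was -0.21 ± 0.32 (adjusted p 0.86) and the interaction -1.04 (adjusted p 0.287).

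The other abundant family 2 genes were not called by edgeR in either sex. Ugt2b5 was at 415, 795, 888 and 520.1 CPM in the CRE- females and 284, 744, 434 and 333 CPM in the LKO females, and these values overlapped. Male mice had 565, 929.5, 607 and 570.4 CPM in CRE- and 898, 1080.1, 1038 and 1004 CPM in LKO mice, where every LKO mouse but replicate 1 lay above all controls. Its log2 ratio was 0.59 (adjusted p 0.563) in males and -0.55 (adjusted p 0.312) in females, with an interaction of -1.13 (adjusted p 0.24). Ugt2b36 had the smallest interaction p of the class, -1.06 (adjusted p 0.201), from log2 ratios of 0.505 in males and -0.55 in females. Ugt2b35 was at 188, 219, 206 and 140.0 CPM in the CRE- males and 439, 320.4, 262 and 238 CPM in the LKO males, without overlap, and its male log2 ratio was 0.74 (adjusted p 0.315). Of the 7 Ugt2b genes tested, 6 had a positive log2 ratio in males and 6 a negative one in females. Ugt2b1 had the most negative value of the 7 in females, -1.06 (adjusted p 0.0989), called by DESeq2 and limma-voom.

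Ugt1a1, the enzyme that conjugates bilirubin, was at 300.1, 320.3, 367 and 218 CPM in the CRE- females and 212, 352, 295 and 234 CPM in the LKO females. These groups overlapped, and the log2 ratio was -0.14 (adjusted p 0.799) in females and 0.53 (adjusted p 0.523) in males. Ugt1a6a and Ugt1a6b, which conjugate planar phenols, had female log2 ratios of -0.495 and -0.38, neither called by edgeR, while limma-voom called Ugt1a6b. Over all Ugt1a rows, with Ugt1a8, which was not tested, the sum was 528, 591, 633 and 439 CPM in CRE- females. It was 295, 545, 413 and 341 CPM in LKO females, which overlapped. Ugt3a1 and Ugt3a2 were lower in every LKO female than in every CRE- female. Ugt3a2 was at 401, 483, 474 and 461 CPM in the CRE- females and 208, 372, 393 and 147 CPM in the LKO females, with a log2 ratio of -0.70 (adjusted p 0.144). Ugt3a1 was at 54.2, 90.4, 95.3 and 62.7 CPM in the CRE- females and 25.7, 40.4, 46.1 and 5.47 CPM in the LKO females, with LKO replicate 4 lowest, and a log2 ratio of -1.36 (adjusted p 0.0947). It was called by DESeq2, by limma-voom and by edgeR with a block for replicate number, a number whose meaning the labels do not give. The symbols Ugt3a1 and Ugt3a2 follow the count table, and GENCODE gives them to the opposite positions. Ugt1a10, Ugt1a2 and Ugt1a7c stayed at or below 1.64 CPM in every library.

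Supply of UDP-glucuronic acid was examined with 8 genes. Of these, among them Ugp2, the most abundant, and Ugdh, which makes UDP-glucuronic acid, edgeR called 0 in either sex. At an unadjusted p under 0.05 there were 0 in males and 3 in females, 2 higher and 1 lower, and the medians were 0.25 and -0.06. Ugdh was at 127, 253, 237 and 191 CPM in the CRE- females and 134, 339, 118 and 243 CPM in the LKO females, overlapping, and at 441, 198, 202 and 172 CPM in the LKO males, where replicate 1 was highest.

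**Figure D2:**
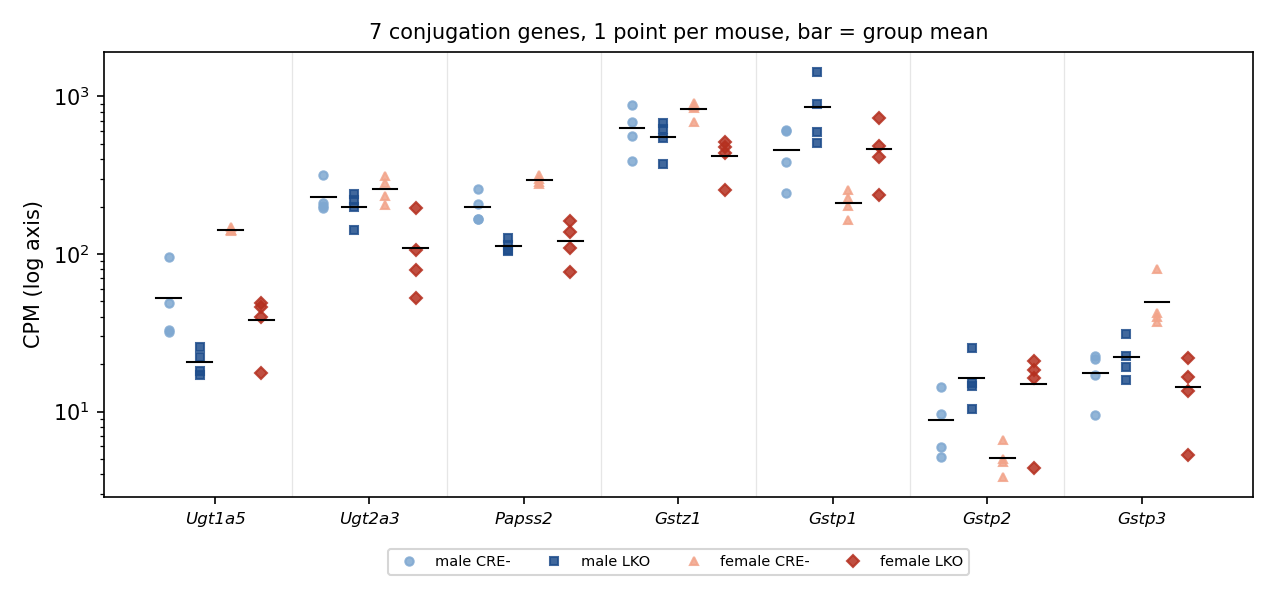
CPM on a log axis of Ugt1a5, Ugt2a3, Papss2, Gstz1, Gstp1, Gstp2 and Gstp3, 1 point per mouse with the group mean as a bar. Ugt1a5 lay between 139 and 148 CPM in CRE- females and between 17.6 and 48.8 CPM in LKO females.

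Sulfation starts with the donor. Papss2 (chromosome 19, 32573072 to 32644587 of GRCm39), which makes PAPS from sulfate and ATP, was at 287, 277, 298 and 319 CPM in the CRE- females and 76.4, 161, 138 and 109.8 CPM in the LKO females. The groups were far apart, the highest LKO female having 161 CPM and the lowest control 277 CPM. Papss2 fell in females with the smallest p of the 63 genes, a log2 ratio of -1.28 ± 0.21 (adjusted p 0.00651). The call of Papss2 was kept in each of the 8 fits that left out 1 female and lost with females fitted alone (adjusted p 0.0501). For males the levels were 207, 258, 168 and 166 CPM in CRE- and 113, 126, 106 and 104 CPM in LKO mice, again without overlap. The male log2 ratio was -0.83 ± 0.21 (adjusted p 0.109) and the interaction -0.45 (adjusted p 0.444). Papss1, the other PAPS synthase, had log2 ratios of -0.24 (adjusted p 0.69) in males and -0.29 (adjusted p 0.36) in females.

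Slc26a1, the sulfate carrier of the hepatocyte's sinusoidal membrane, was at 241, 210.3, 217 and 271 CPM in the CRE- females and 119, 164, 119.7 and 139.9 CPM in the LKO females. No LKO female reached a control. It fell, with a log2 ratio of -0.79 ± 0.19 (adjusted p 0.0305), a call kept in 1 of 8 fits that each left out 1 female, the one without LKO replicate 2. The males were at 174, 205, 275 and 188 CPM in CRE- and 111, 149, 102 and 133 CPM in LKO mice, also without overlap, and the log2 ratio was -0.77 ± 0.19 (adjusted p 0.101), with an interaction of -0.02 (adjusted p 0.977). Sts, the steroid sulfatase, which removes sulfate, was at 20.9, 18.7, 22.7 and 22.7 CPM in the CRE- females and 32.5, 44, 30.8 and 31.01 CPM in the LKO females, every LKO female being above every control. It rose by a log2 ratio of 0.70 ± 0.17 (adjusted p 0.0334), kept without LKO replicate 3 or 4 and not in the other 6 fits. These were the 2 calls among 11 genes of PAPS supply and desulfation in females. In males edgeR called 0 of the 11 and 1 had an unadjusted p under 0.05, and the medians of the list were -0.07 in males and -0.11 in females.

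The Sult2a genes sulfate hydroxysteroids and bile acids and lie side by side on chromosome 7 of GRCm39 between 13357892 and 14226948, in the order Sult2a5, Sult2a2, Sult2a1, Sult2a4, Sult2a3, Sult2a6, Sult2a8 and Sult2a7. Sult2a7, the last of them, was at 23.9, 93.5, 216 and 30.8 CPM in the CRE- females and 0.151, 0.299, 3.53 and 0.0579 CPM in the LKO females. The controls themselves spread widely, and the LKO females lay far below them. Sult2a7 fell, with a log2 ratio of -6.42 ± 1.24 (adjusted p 0.016), the largest decrease among the 63 genes, and the pooled reads were 72.6-fold lower. The call was kept in each of the 8 fits that left out 1 female, with log2 ratios of -9.01 (without LKO replicate 3) to -5.54, and Sult2a7 lost it with females fitted alone (adjusted p 0.0501). In males it was at 25.6, 33.3, 2.24 and 14.6 CPM in CRE- and 7.898, 38.9, 41.4 and 109 CPM in LKO mice, which overlapped. Its log2 ratio in males was 1.38 ± 0.98 (adjusted p 0.694), and the interaction -7.80 (adjusted p 0.135) was larger in size only for Sult2a1.

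Sult2a8, a bile acid sulfotransferase next to it, was at 114, 174, 238 and 81.8 CPM in the CRE- females and 13.1, 33.5, 71.4 and 1.74 CPM in the LKO females. No LKO female reached the lowest control, and LKO replicate 4 was lowest. The log2 ratio was -2.34 ± 0.77 (adjusted p 0.0899), which passed the threshold without LKO replicate 3 (adjusted p 0.0447). DESeq2, limma-voom and edgeR with a block for replicate number called Sult2a8 in females. The male values were 496, 746, 367 and 492 CPM in CRE- and 93.5, 894, 643 and 713 CPM in LKO mice, with LKO replicate 1 far below the other 7 males. As a log2 ratio, the male difference was 0.16 (adjusted p 0.964), 0.50 without that mouse, and the interaction -2.501 (adjusted p 0.276).

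None of Sult2a1 to Sult2a6 was called by edgeR between LKO and CRE- mice of the same sex. Sult2a1 was at 721, 1028, 867 and 873 CPM in the CRE- females and 239, 594, 685 and 403 CPM in the LKO females. Sult2a2 was at 614, 865, 807 and 832 CPM in the CRE- females and 161, 618, 605 and 359 CPM in the LKO females. Every LKO female was below every control for Sult2a1 and 1 LKO female was just above the lowest control for Sult2a2. Their female log2 ratios were -0.86 ± 1.42 (adjusted p 0.784) and -0.84 ± 1.57 (adjusted p 0.812), and the 6 genes had a median of -0.86, with 0 of 6 called by edgeR and 0 at an unadjusted p under 0.05. The LKO females differed from gene to gene, since Sult2a4 in replicate 3 was above every control and Sult2a3 in replicate 4 was far below them. Without LKO male replicate 1, the female log2 ratio of Sult2a1 was -0.85 ± 0.46 (adjusted p 0.312). Among males, Sult2a1 was at 0.0406, 0.267, 0 and 0.0449 CPM in the CRE- males and 116, 0.125, 0 and 0 CPM in the LKO males. The male log2 ratio of 8.28 ± 2.14 (adjusted p 0.119) rests on LKO replicate 1, without which it was -0.91. For Sult2a2 the male values were 0.0406, 1.56, 0 and 0.1798 CPM in the CRE- males and 162, 0.0625, 0 and 0 CPM in the LKO males, and its male log2 ratio of 6.49 became -4.09 without that replicate. Sult2a3, Sult2a4, Sult2a5 and Sult2a6 were also highest in replicate 1 among the LKO males, at 7.33, 0.489, 15.5 and 0.154 CPM. Sult2a1, Sult2a2 and Sult2a5 share 5.03%, 13.2% and 8.47% of their windows of 150 bases with other genes and the other Sult2a genes 0%.

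**Figure D3:**
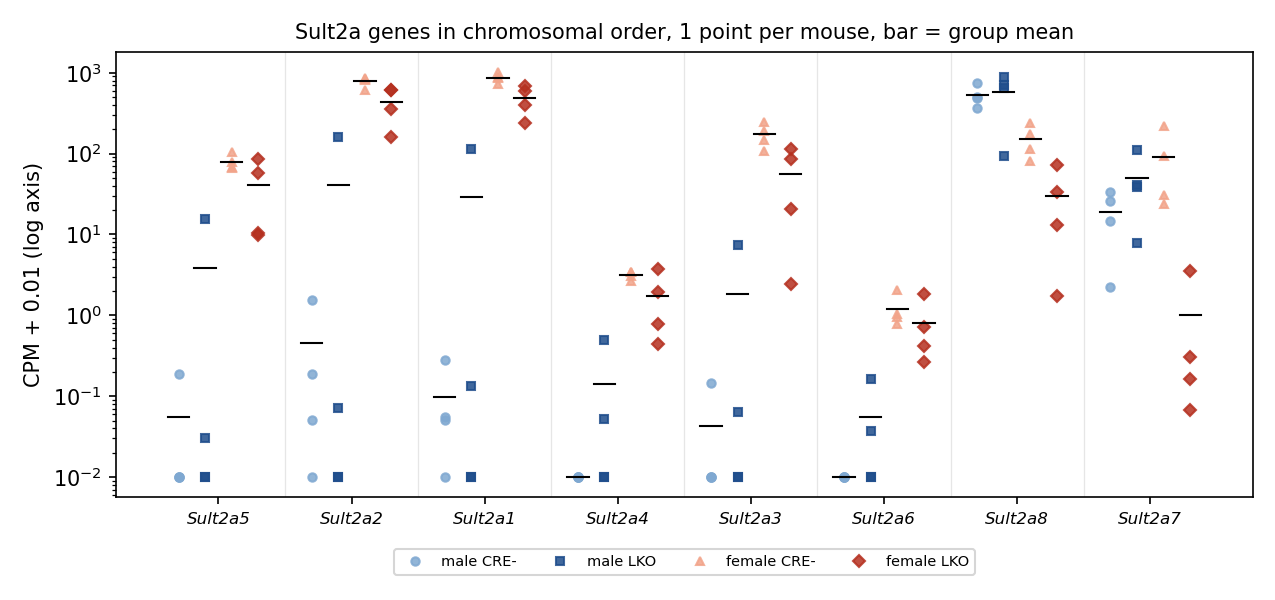
CPM plus 0.01 on a log axis for the 8 Sult2a genes in chromosomal order, 1 point per mouse with the group mean as a bar. Sult2a1 was between 721 and 1028 CPM in CRE- females and at most 0.267 CPM in CRE- males, with 1 LKO male at 116 CPM.

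Between CRE- females and CRE- males, a comparison that shares its controls with both LKO comparisons, 7 of 63 genes were called, all higher in females, beside 0.92% of all genes in either direction and 0.412% higher. They were Sult2a1 to Sult2a6 and Sult3a1. The 6 Sult2a genes had 0 to 80 pooled reads in CRE- males, and Sult3a1 also had few. All 7 could pass the filter only through the females, so they had to differ, and the share of all genes is no fair comparison for them. All the reads of Sult2a3 in CRE- males, and most of those of Sult2a1, came from replicate 2, so no exact fold is given for them. Sult2a4 and Sult2a6 had no reads in CRE- males. Against a floor of 3 reads over the group they were 184-fold and 68.6-fold higher. Single reads of paired-end libraries were counted, and reads of the same fragment are not independent, so these values are not strict lower bounds. Such floors cover counting error only. Sult2a8 went the other way, with a log2 ratio of -1.79 (adjusted p 0.339). The count of 7 was 3 (Sult2a3, Sult2a4 and Sult2a6) without CRE- male replicate 1, 3 or 4. All genes then stood at 0.398%, 0.434% and 0.726% in the same order. Without LKO female replicate 1 or 4 the count was 11. Between LKO females and LKO males 3 of 63 were called, all lower in females, beside 1.13% of all genes in either direction with 0.615% lower and 0.514% higher. These were Sult2a8 at -4.29 ± 0.84 (adjusted p 0.0229), Sult2a7 at -5.53 ± 1.20 (adjusted p 0.0341) and Ugt1a6b at -0.77 ± 0.18 (adjusted p 0.0495). Without LKO male replicate 1 there were 9 (all genes 2.37%), with Sult2a1 to Sult2a6 higher in females and Sult2a7, Sult2a8 and Ugt2b1 lower. With that mouse left out, Sult2a1 to Sult2a6 again could pass the filter only through the females and had to differ. There were 10 without LKO female replicate 2 (2 higher and 8 lower, all genes 4%). The count was 1 without CRE- male replicate 1 (all genes 0.726%) or LKO female replicate 4. It was 0 without LKO male replicate 2 (all genes 0.287%), 3 (all genes 0.427%) or 4.

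Sult1a1, which sulfates phenols, was the most abundant Sult1 gene at 78.3 RPKM. It was at 459.8, 509, 447 and 601 CPM in the CRE- females and 209.8, 363, 306 and 668 CPM in the LKO females, and LKO replicate 4 was the highest female of all while the others lay below every control. Its log2 ratio was -0.38 (adjusted p 0.459) in females and -0.33 (adjusted p 0.736) in males. Sult1d1, which acts on catecholamines, was at 167, 211, 231 and 125 CPM in the CRE- females and 64.2, 157, 114 and 101 CPM in the LKO females, and these overlapped, with a log2 ratio of -0.75 (adjusted p 0.13). Sult1e1, the estrogen sulfotransferase, ranged widely, at 29.7, 13.7, 2.49 and 26.4 CPM in the CRE- females and 1.26, 4.69, 0.805 and 209 CPM in the LKO females. LKO female replicate 4 stood alone at 209 CPM. Among males it stood at 0, 0.446, 0.156 and 0.202 CPM in CRE- and 2.73, 0.4997, 8.397 and 1.08 CPM in LKO mice, each LKO male lying above each control at low levels. EdgeR called Sult1e1 in neither sex, with log2 ratios of 3.97 (adjusted p 0.446) in males and 1.58 (adjusted p 0.536) in females. The positive female value rests on LKO replicate 4, since each other LKO female was below the CRE- female mean of 18.1 CPM. Sult3a1, which sulfates amines, was at 18.6, 23.1, 31.6 and 6.39 CPM in the CRE- females and 0.302, 0.249, 2.47 and 8.504 CPM in the LKO females. For its neighbour in the family, Sult3a2, the values were 1.42, 2.57, 2.54 and 0.508 CPM in the CRE- females and 0, 0.0499, 0.0366 and 0.463 CPM in the LKO females. LKO replicate 4 was highest among the LKO females for both and overlapped the controls for Sult3a1. Few mice but the CRE- females had reads of Sult3a2, so it could pass the filter only by differing between groups. Their female log2 ratios were -2.80 (adjusted p 0.125) and -3.72 (adjusted p 0.0793). Sult5a1 was at 3.92, 2.495, 4.63 and 4 CPM in the CRE- males and 0.103, 0.292, 0.845 and 0.918 CPM in the LKO males, without overlap, with a male log2 ratio of -2.80 (adjusted p 0.319). Sult1b1 and Sult1c2 had female log2 ratios of -0.89 and -1.09, neither called by edgeR, while limma-voom called Sult1c2. Sult4a1 stayed at or below 1.20 CPM in every library.

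The glutathione genes summed to 7800.5, 11116, 4309 and 9146 CPM in CRE- and 14866, 9920.1, 10436 and 10468 CPM in LKO males. In females they were 6872, 11117, 10636 and 11150 CPM in CRE- and 3165, 10163, 7355 and 8705 CPM in LKO mice. The groups overlapped in both sexes, with LKO male replicate 1 highest and LKO female replicate 1 lowest of all mice. The highest RPKM, averaged over all libraries, were those of Gstm1 (1799 RPKM), Mgst1 (1733 RPKM), Gsta3 (978 RPKM), Gstp1 (670.2 RPKM) and Gstt1 (270.2 RPKM). In both CRE- groups Mgst1 was above Gstm1.

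The pi-class genes are neighbours on chromosome 19. Gstp1 (chromosome 19, 4085411 to 4087912 of GRCm39) is the main pi-class enzyme of mouse liver. It was at 165, 202, 225 and 256 CPM in the CRE- females and 237, 729, 416 and 483 CPM in the LKO females, with LKO replicate 1 below the highest control and the other 3 above all of them. Male mice had 608, 384, 245 and 600.1 CPM in CRE- and 1434, 508, 890.1 and 596 CPM in LKO mice, which overlapped, and LKO replicate 1 was highest. The log2 ratio was 1.14 ± 0.37 (adjusted p 0.0885) in females and 0.90 ± 0.37 (adjusted p 0.438) in males, not called by edgeR in either sex but called by DESeq2 and limma-voom in females, and the interaction 0.24 (adjusted p 0.85). Gstp2 (chromosome 19, 4090288 to 4092221), its neighbour at a lower level, was at 3.84, 4.75, 5.004 and 6.63 CPM in the CRE- females and 4.38, 16.4, 18.3 and 20.9 CPM in the LKO females. As for Gstp1, LKO replicate 1 lay among the controls and the other 3 were well above. Gstp2 rose, with a log2 ratio of 1.57 ± 0.42 (adjusted p 0.0476), which in the fits leaving out 1 female passed the threshold only without LKO replicate 1 (1.89, adjusted p 0.0163). The male log2 ratio was 0.90 (adjusted p 0.507) and the interaction 0.67 (adjusted p 0.564).

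Gstp3 (chromosome 19, 4107470 to 4109587) was at 40.1, 36.97, 42.2 and 79.9 CPM in the CRE- females and 5.26, 16.6, 21.9 and 13.6 CPM in the LKO females. Here every LKO female was below every control, CRE- replicate 4 being highest. Gstp3 fell, with a log2 ratio of -1.80 ± 0.39 (adjusted p 0.0225), a call kept in 5 of 8 fits and lost without CRE- female replicate 2, 3 or 4. For males the levels were 16.98, 21.5, 9.46 and 22.7 CPM in CRE- and 19.2, 31.1, 15.8 and 22.6 CPM in LKO mice, with overlap. Its log2 ratio in males was 0.33 (adjusted p 0.814) and the interaction -2.13 (adjusted p 0.148). Of the windows of 150 bases in their transcripts, Gstp1 shares 15.8% and Gstp2 25.8% with other genes, chiefly each other, and Gstp3 shares 0%, so the counts of Gstp1 and Gstp2 are less certain than that of Gstp3.

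The promoters of these 3 neighbours are shown from 250 bases before to 50 bases after the gene start, as given by RefSeq on build GRCm38.p6. They lie on the minus strand at chr19:4037863-4038162 (Gstp1), chr19:4042172-4042471 (Gstp2) and chr19:4059398-4059697 (Gstp3). Capitals mark a match to TGANTCA, searched on both strands with TGACNNNGC and TTCNNNGAA.
Gstp1: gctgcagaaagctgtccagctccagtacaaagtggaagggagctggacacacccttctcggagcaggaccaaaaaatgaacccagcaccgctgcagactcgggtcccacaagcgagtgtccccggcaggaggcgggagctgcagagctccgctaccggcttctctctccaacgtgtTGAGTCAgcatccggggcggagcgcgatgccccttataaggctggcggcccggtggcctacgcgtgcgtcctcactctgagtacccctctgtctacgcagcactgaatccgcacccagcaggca
Gstp2: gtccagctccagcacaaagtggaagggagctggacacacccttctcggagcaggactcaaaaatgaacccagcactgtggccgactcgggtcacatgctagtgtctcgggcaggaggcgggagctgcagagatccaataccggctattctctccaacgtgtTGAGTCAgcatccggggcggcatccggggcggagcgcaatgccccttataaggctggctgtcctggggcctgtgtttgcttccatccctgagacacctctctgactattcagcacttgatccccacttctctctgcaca
Gstp3: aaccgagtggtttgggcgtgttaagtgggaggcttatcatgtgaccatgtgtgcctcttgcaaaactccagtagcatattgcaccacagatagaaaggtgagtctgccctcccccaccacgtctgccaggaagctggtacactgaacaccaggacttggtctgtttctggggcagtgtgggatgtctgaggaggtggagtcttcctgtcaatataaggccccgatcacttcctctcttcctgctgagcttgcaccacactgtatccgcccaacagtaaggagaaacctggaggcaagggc
The Gstp1 and Gstp2 promoters are 77.3% identical over the aligned columns, and they are 50.3% and 50.9% identical to that of Gstp3. TGANTCA, the core bound by AP-1 and related factors, is in Gstp1 and Gstp2 and not in the window of Gstp3. It occurs in 7.81% of 32841 promoters of 300 bases, TGACNNNGC, the core of the antioxidant response element, in 12.4%, and TTCNNNGAA, the core bound by STAT5, in 8.3%. Of the 71 genes, 61 had an entry. TGACNNNGC was found in 4 of 32 glutathione promoters (Gsta3, Gstm5, Gstm7 and Mgst1), 0 of 19 glucuronidation promoters and 0 of 24 sulfation promoters. TGANTCA was found in 4, 6 and 4 promoters of these classes in the same order, and TTCNNNGAA in 4, 1 and 1. These are matches of letters within the window and say nothing about binding.

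Gstz1 (chromosome 12, 87192102 to 87211497 of GRCm39), the maleylacetoacetate isomerase of tyrosine breakdown, was at 691, 844, 874 and 910.1 CPM in the CRE- females and 254, 511, 478 and 438 CPM in the LKO females. No LKO female reached a control. It fell, with a log2 ratio of -0.98 ± 0.27 (adjusted p 0.0497), a call kept in 1 of 8 fits that each left out 1 female, the one without LKO replicate 2. It was also lost without CRE- male replicate 1 or 4 or LKO male replicate 2, 3 or 4, as were those of Ugt2a3 and Gstp2. The males were at 560.2, 885, 391 and 685 CPM in CRE- and 369.9, 679, 549 and 625 CPM in LKO mice, and the groups overlapped. As a log2 ratio, the male difference was -0.18 (adjusted p 0.859) and the interaction -0.80 (adjusted p 0.313).

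Gsta3, an alpha-class enzyme that detoxifies aflatoxin epoxide in mice, was at 1491, 2284, 1894 and 2181 CPM in the CRE- females and 576, 1364, 1110.0 and 1305 CPM in the LKO females. The LKO females lay below the controls without overlap, and the log2 ratio was -0.85 ± 0.29 (adjusted p 0.0996), with 0.42 in males and an interaction of -1.27 (adjusted p 0.209). Gstt1, of the theta class, was at 265, 430.4, 431 and 471 CPM in the CRE- females and 62.9, 259, 234 and 193 CPM in the LKO females, where CRE- replicate 1 lay just above the highest LKO female. Its log2 ratio was -1.09 ± 0.36 (adjusted p 0.0858), and the interaction -1.51 (adjusted p 0.213). Gstm7 was at 72.1, 77.1, 76.1 and 107 CPM in the CRE- females and 17.1, 51.2, 43.4 and 58.03 CPM in the LKO females, also without overlap, with a log2 ratio of -0.97 ± 0.31 (adjusted p 0.0843). EdgeR called none of these 3 in females, and DESeq2 and limma-voom called all 3. EdgeR with a block for replicate number also called all 3, but the labels do not say what same-numbered mice share.

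Mgst3, a microsomal enzyme with peroxidase activity, was at 20.6, 38.1, 21.8 and 25.1 CPM in the CRE- males and 81.03, 50.2, 51.5 and 48.7 CPM in the LKO males. Every LKO male was above every control, and LKO replicate 1 was highest. Its male log2 ratio was 1.13 ± 0.29 (adjusted p 0.119), 0.91 without that replicate. In females it was at 37.4, 62.4, 60.6 and 87.2 CPM in the CRE- females and 40.7, 66.8, 50.3 and 28.9 CPM in the LKO females, which overlapped, with a log2 ratio of -0.41 (adjusted p 0.453) and an interaction of -1.54 (adjusted p 0.168). Mgst1, the abundant microsomal form, was at 1799, 3085, 3116 and 2865 CPM in the CRE- females and 779, 2182, 1778 and 1581 CPM in the LKO females, where LKO replicate 2 reached the range of the controls. Its log2 ratio was -0.78 (adjusted p 0.172) in females and 0.12 (adjusted p 0.929) in males.

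Of the mu class, Gstm1, Gstm2 and Gstm3 had 1 or 2 libraries far above the rest in some groups. Gstm1 was at 1804, 2243, 784 and 2196 CPM in the CRE- males and 6647, 2118, 3239 and 2267 CPM in the LKO males, LKO replicate 1 having more than the other 3 did by a wide margin. Its log2 ratio was 1.02 (adjusted p 0.452) in males and 0.52 without that replicate, and -0.03 (adjusted p 0.98) in females. Gstm3 was at 93.1, 152, 72.05 and 95.8 CPM in the CRE- males and 1009, 84.1, 78.1 and 64.1 CPM in the LKO males. In females Gstm3 was at 141, 225, 198 and 222 CPM in the CRE- females and 70.1, 552, 128 and 1074 CPM in the LKO females. LKO male replicate 1 and LKO female replicates 2 and 4 were far above the other mice of their groups, and the male log2 ratio of 1.58 became -0.47 without replicate 1. Gstm2 was highest in LKO female replicate 4, at 449 CPM against 39.6 to 135 CPM in the other LKO females. Among the alpha-class genes, Gsta1, Gsta2, Gsta4 and Gsta13 were each highest among males in LKO replicate 1, at 30.3, 175, 231 and 13.5 CPM. Gsta1 and Gsta13 share 72.5% and 76.6% of their windows, chiefly with each other, so their counts are uncertain. Gstk1, Gsto1, Gstt2 and Gstt3 had female log2 ratios of -0.85, -0.56, -0.04 and -1.46, none called by edgeR, while DESeq2 and limma-voom called Gstt3.

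Supply of glutathione gave 0 calls among 16 genes in either sex by edgeR, with 7 in males (6 higher) and 5 in females (3 higher) at an unadjusted p under 0.05 and medians of 0.29 and 0.19. Gpx1, the cytosolic glutathione peroxidase, was the most abundant. Chac1, which degrades glutathione, was at 2.64, 3.43, 2.86 and 3.37 CPM in the CRE- males and 20.9, 12.3, 13.9 and 10.6 CPM in the LKO males. Every LKO male was above every control, at a log2 ratio of 2.23 (adjusted p 0.103), and in females it was 1.93 (adjusted p 0.055). Slc7a11, the cystine carrier, was at 18.3, 1.54, 0.348 and 0.432 CPM in LKO males, with replicate 1 far above the rest, the same mouse that led in Gstm1, Gstm3 and Abcc4 (124 CPM). Gclc, the catalytic subunit of the enzyme that starts glutathione synthesis, had log2 ratios of 0.64 (adjusted p 0.507) in males and -0.49 (adjusted p 0.366) in females.

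Of 19 other conjugating enzymes and epoxide hydrolases, 1 was called in females, Baat, which joins bile acids to taurine and glycine. Baat was at 224, 312, 270.0 and 261 CPM in the CRE- females and 126, 189, 176 and 142 CPM in the LKO females. All LKO females were below all controls, and it fell by a log2 ratio of -0.75 ± 0.18 (adjusted p 0.0294), kept in 3 of 8 fits and lost without CRE- female replicate 2, 3 or 4 or LKO female replicate 1 or 4. The median of the 19 was -0.61 in females, where 9 had an unadjusted p under 0.05, all lower, and 0.13 in males, where edgeR called 0 and 2 had an unadjusted p under 0.05. Gnmt, a glycine methyltransferase, was the most abundant of them, with a female log2 ratio of -1.28 (adjusted p 0.0848).

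Among 22 sensors of foreign compounds and regulators of liver genes, the xenobiotic receptors Nr1i2 and Nr1i3 were not called by edgeR. Nr1i2 had log2 ratios of 0.27 (adjusted p 0.711) in males and -0.04 (adjusted p 0.948) in females, and Nr1i3 0.56 (adjusted p 0.727) and -0.34 (adjusted p 0.713). Nfe2l2, the regulator of antioxidant genes, had 0.30 (adjusted p 0.568) and 0.16 (adjusted p 0.61). Esr1, the estrogen receptor, was called in both sexes. It was at 26.1, 22.9, 39.4 and 21.4 CPM in the CRE- males and 14.2, 11.7, 10.7 and 6.97 CPM in the LKO males. In females it was at 57.2, 55.2, 40.03 and 44.8 CPM in the CRE- females and 30.01, 16.8, 16.04 and 16.1 CPM in the LKO females. The groups did not overlap in either sex, and Esr1 fell by log2 ratios of -1.33 ± 0.26 (adjusted p 0.036) in males and -1.32 ± 0.26 (adjusted p 0.0173) in females. The male call was kept in 2 of 8 fits that each left out 1 male, those without CRE- male replicate 4 or LKO male replicate 1, and the female call was lost without CRE- female replicate 2. Ghr, the growth hormone receptor, was at 372, 470.3, 479 and 428 CPM in the CRE- females and 128, 246, 206 and 158 CPM in the LKO females, without overlap. It fell in females, with -1.24 ± 0.25 (adjusted p 0.0184), a call lost without CRE- female replicate 2, 3 or 4, and had -0.40 (adjusted p 0.646) in males. The medians of the 22 were 0.03 in males and -0.22 in females. Cux2 was called between the CRE- sexes, at 6.08 (adjusted p 0.0394) with the higher level in females.

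The zonal lists gave 1 call in females. Of 12 periportal genes Cyp2f2, a cytochrome P450, was at 377, 748, 858 and 579.6 CPM in the CRE- females and 72.3, 223, 89.8 and 92.7 CPM in the LKO females, with no overlap, and fell by a log2 ratio of -2.42 ± 0.46 (adjusted p 0.0149). The list's median was -0.71 in males, where edgeR called 0 and 6 had an unadjusted p under 0.05, all lower, and -0.68 in females, where 8 did, all lower. Of 13 pericentral genes edgeR called 0 in either sex, with 1 at an unadjusted p under 0.05 in each, and the medians were -0.08 in males and 0.34 in females. The pericentral sums were 8911, 10661, 11872 and 11523 CPM in CRE- and 3472, 8008, 10055 and 14222 CPM in LKO females, so LKO replicate 1 was lowest and replicate 4 highest. The part of the zonal genes in the results on conjugating enzymes was not tested.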

How the data were processed

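The authors deposited counts of reads per gene and library. They aligned the reads with STAR 2.7.1a to GRCm39 and counted them with featureCounts of Subread 2.0.6, strand-specifically. Single reads rather than fragments were counted, and reads with several alignments or on more than 1 gene were not. In R 4.3.3 with edgeR 4.0.16, filterByExpr at a minimum count of 10 removed low rows, TMM scaled the 16 libraries, and 1 quasi-likelihood fit of the 4 groups gave F tests, adjusted after Benjamini and Hochberg with a threshold of 0.05. CPM uses the TMM-scaled library size, and the fitted log2 ratios use the default prior count of edgeR. RPKM divides by the counted length of the gene. Alternatives were DESeq2 1.42.0, limma-voom with sample quality weights (limma 3.58.1), RLE scaling, no filter, each sex fitted alone, a replicate block, and each mouse left out. Leaving out the 2 libraries of lowest quality weight was added after seeing the data. Members and lists were chosen with earlier results of these data known. Genes named are the called members of each class, the 5 with the highest RPKM, those with the 3 smallest p in each LKO comparison and between the CRE- sexes, and called or most abundant list genes. Further members and list genes were named after their values were seen. The steps were tested on simulated data.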

Additional observations from a re-analysis of the deposited data

Results flagged for a closer look

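In some groups of 4 mice, 1 mouse lay far from the other 3, with a gap relative to the range above Dixon's critical value. The search covered 128 groups over 32 genes and found 18, where chance alone marks about 1 group in 20 if values are spread normally. That rate does not hold for groups with 3 values of 0, and the genes had been chosen with their values known. Causes were not examined.

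CRE- male replicate 2 stood apart for Ugt2a3 at 318.3 CPM (others 194.6, 202.1, 211.5), Ugt2b5 at 929.5 CPM (others 564.9, 570.4, 606.8), Sult2a3 at 0.1337 CPM (others 0, 0, 0), Sult2a5 at 0.1782 CPM (others 0, 0, 0) and Sult3a2 at 0.1337 CPM (others 0, 0, 0).

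LKO male replicate 1 stood apart for Sult2a2 at 162 CPM (others 0, 0, 0.06246), Sult2a1 at 115.6 CPM (others 0, 0, 0.1249), Sult2a8 at 93.54 CPM (others 643.4, 712.8, 894), Sult2a3 at 7.332 CPM (others 0, 0, 0.05403), Sult2a5 at 15.51 CPM (others 0, 0, 0.02082) and Mgst3 at 81.03 CPM (others 48.65, 50.22, 51.53).

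LKO female replicate 1 stood apart for Gstp2 at 4.38 CPM (others 16.36, 18.29, 20.86) and Gstm5 at 6.545 CPM (others 12.61, 12.96, 13.5).

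CRE- female replicate 1 stood apart for Gstm1 at 1501 CPM (others 2494, 2545, 2655), Mgst1 at 1799 CPM (others 2865, 3085, 3116) and Gstt1 at 264.8 CPM (others 430.4, 430.6, 471).

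CRE- female replicate 4 stood apart for Gstm5 at 18.66 CPM (others 11.6, 12.02, 12.45).

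CRE- male replicate 3 stood apart for Gcgr at 127.3 CPM (others 189.6, 190.4, 192.9).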

How the results depend on the processing

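Groups of 4 mice, 1 age and bulk liver limit these results, and counts of called genes near the threshold moved with the method. The cause was not tested. In LKO males, 0 members were called with edgeR (all genes 0.454%), 4 with DESeq2 (2.03%), 1 with limma-voom with sample quality weights (0.884%), and 2 with the 2 libraries of lowest quality weight left out (0.454%). Leaving out 1 mouse at a time gave 0 to 2, the 2 without LKO female replicate 1.

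In LKO females the 7 (all genes 4.24%) became 16 with DESeq2 (11.1%), 21 with limma-voom (11.8%) and 1 with each sex fitted alone (0.756%), where only Ugt1a5 was kept. Leaving out 1 mouse gave 3 (CRE- female replicate 2) to 8 (LKO female replicate 2). Gstz1 was also lost with RLE scaling or no filter.

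The interaction called 0, against 4 with DESeq2 (all genes 2.22%) and 1 without a filter (0.0455%), and 0 to 1 with 1 mouse left out. Between CRE- females and males the 7 (all genes 0.92%) became 14 with DESeq2 (3.11%), 13 with limma-voom (1.97%) and 3 without the 2 libraries of lowest weight (0.708%), and 3 to 11 with 1 mouse left out. Between LKO females and males the 3 (all genes 1.13%) became 15 with DESeq2 (6.73%), 15 with limma-voom (5.69%) and 0 to 10 with 1 mouse left out.

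For Gcgr in females the log2 ratio was -0.92 without a filter (adjusted p 0.0545) and -0.91 with females alone (adjusted p 0.132), and -1.11 to -0.69 with 1 mouse left out. In males it was -0.51 to -0.32.

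With a block for replicate number, 15 members were called in LKO females (all genes 7.43%) and 9 between LKO females and males (3.07%). The labels number the mice of each group and do not say what mice of the same number share. Between CRE- females and males the block gave 7 (0.962%), with Ugt1a5 gained and Sult2a2 lost. Same-numbered pairs of libraries had a median correlation of 0.0925 and different-numbered pairs -0.0204, with 11 of 24 and 12 of 72 pairs above 0.1.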
